A study of Homo sapiens with 8 samples.

Results

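The genes described here are 39 ribosome biogenesis and nucleolar factors, chosen by symbol from the 60332 genes of an expression table. The cells were SK-N-MC, a line established from an Ewing sarcoma. The list was drawn by function and its rule used no measured value, though earlier results of these data were known. It holds 4 genes of the RNA polymerase I machinery, 4 proteins of box C/D and 4 of H/ACA small nucleolar RNPs. The rest are 5 nucleolar or scaffold proteins, 11 factors of the small ribosomal subunit and 11 of the large one. All 39 were found in the table, and all 39 passed the filter on low values, which kept 15372 genes. The study asked how repression of the enhancer of LOXHD1 alters the response of these cells to low oxygen. RNA was sequenced in 8 libraries, 2 per group.

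Every library came from cells that carried dCas9-KRAB, a Cas9 that does not cut fused to a transcriptional repressor. Control cells held the empty vector with no guide to the enhancer and were kept for 16 h in normoxia or in hypoxia (1% O2). In the eKD1 and eKD2 groups, 1 of 2 different guides brought the repressor next to the GGAA repeat of the LOXHD1 enhancer, and the libraries analysed here are from hypoxia only. The lines were pools selected with puromycin rather than clones, and each guide stands for 1 group of 2 libraries described by the study as biological duplicates. The hypoxia, eKD1 and eKD2 comparisons share the control hypoxia libraries, and with no eKD library from normoxia an interaction between oxygen and guide could not be fitted.

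Ribosomes are assembled largely in the nucleolus, where RNA polymerase I transcribes the long precursor of the 18S, 5.8S and 28S ribosomal RNAs. Box C/D particles methylate the precursor and H/ACA particles turn uridines into pseudouridines, while the small subunit processome folds and cuts the part that becomes 18S rRNA and a separate set of factors matures the large subunit. Many of these genes are known targets of the transcription factor MYC, and their expression usually follows the growth rate of the cell.

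The Ewing sarcoma markers CD99, NKX2-2, NR0B1, LIPI and STEAP1 were at 10.8 FPKM (sequenced fragments relative to transcript length and library size) or more in every library. LOXHD1, whose enhancer was targeted, was at 156 and 169 FPKM in normoxic controls and lower, at 93.0 and 91.1 FPKM, in hypoxic controls. LOXHD1 was at 17.3 and 15.0 FPKM with the first guide and 11.7 and 11.8 FPKM with the second, so both guides separated fully from control. Of 6 markers of other cell types, CD3E and KRT5 were at 0 in every library, and the summed FPKM of the 6 was 28.4 and 27.2 under normoxia, 10.5 and 9.02 for hypoxic controls, 16.2 and 16.1 for eKD1 and 20.1 and 17.5 for eKD2. PTPRC, a phosphatase best known from leukocytes, was the larger part of that sum in every library but replicate 1 of control hypoxia. Without it the sum was 6.16 and 6.54 FPKM in eKD1 and 3.39 to 5.90 FPKM in the other libraries, so that eKD1 lay above the other groups, which overlapped. Relative sequencing depth, read from the low values with replicate 1 of control hypoxia as 100%, was 96.1% for its duplicate, 76.0% and 55.7% under normoxia, 82.7% and 61.1% for eKD1, then 77.6% and 77.1% for eKD2.

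The 39 members together made up 1.16% and 1.19% of all FPKM in the normoxia libraries, 0.825% and 0.838% for hypoxic controls, 0.861% and 0.852% for eKD1, then 0.889% and 0.804% for eKD2. Both normoxia libraries stood above all 6 hypoxia libraries, and the eKD2 libraries lay on either side of the control ones. NPM1, the nucleolar protein nucleophosmin, was the most abundant member at a mean of 3329 FPKM over the 8 libraries, followed by nucleolin (NCL) at 1625 FPKM and the methyltransferase fibrillarin (FBL) at 740.1 FPKM. The lowest mean was 12.5 FPKM, for UTP20. FPKM is per length of transcript, so these levels can be set side by side between genes, within the limits of the authors' gene models.

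**Figure D1:**
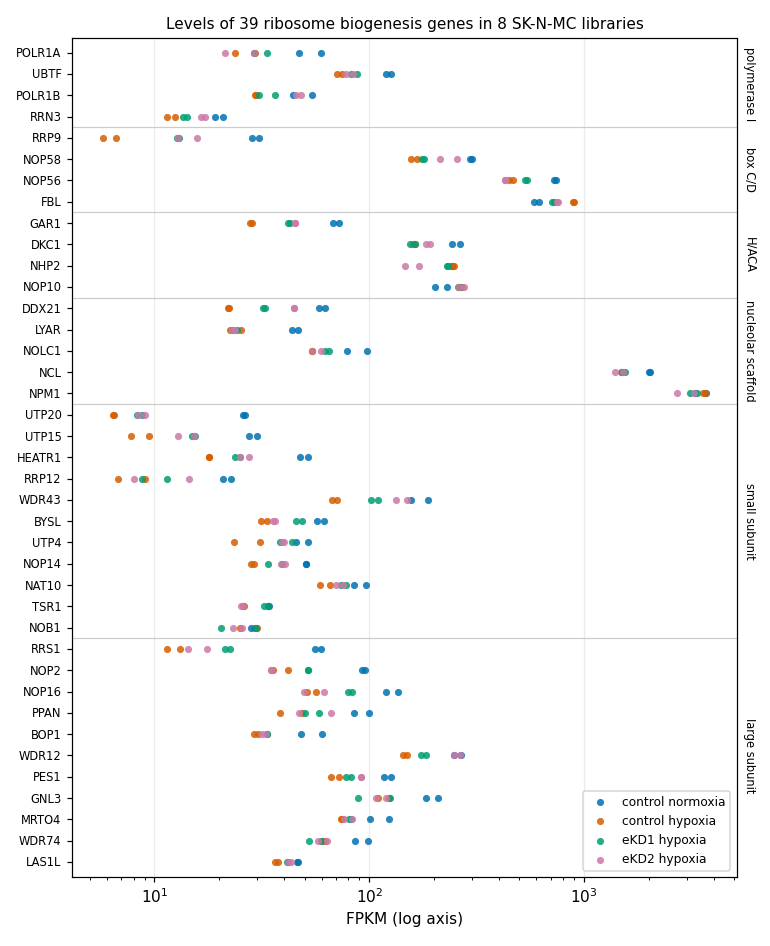
FPKM on a log axis (horizontal) of the 39 members (vertical), grouped by role, with 1 point per library and 1 colour per group of 2 libraries. For most members the normoxia points lie to the right of all others, while FBL has its 2 normoxia points at 615 and 585 FPKM on the left.

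Hypoxic and normoxic control cells were compared to see which members follow oxygen. Most ribosome biogenesis genes fell: 34 of 39 were lower in hypoxia past the threshold (adjusted p under 0.05 from limma over all genes tested), 1 was higher and 4 were not called. Over all genes tested, 16.0% were called lower and 16.2% higher. Both hypoxia libraries lay below both normoxia libraries for 34 members and above them for 2, against 34.5% and 35.9% of all genes. The median log2 change of FPKM + 1 over the members was -0.81, with a median of 0.01 over all genes, and the members ranged from -2.14 to 0.57. The falls reached every role group, with 4 of 4 polymerase I genes, 3 of 4 box C/D genes, 2 of 4 H/ACA genes, 4 of 5 scaffold genes, 10 of 11 small subunit genes and 11 of 11 large subunit genes lower. After every library was scaled to an equal total, the median over all genes moved to -0.19 and that over the members to -1.05, which left the members 0.85 below all genes instead of 0.82. The normoxia libraries were the shallower ones and PTPRC, alone among the other-cell markers, followed the same order as most members, and their part in the falls was not tested. In bulk RNA a lower level from fewer cells and less RNA per cell cannot be told apart.

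**Figure D2:**
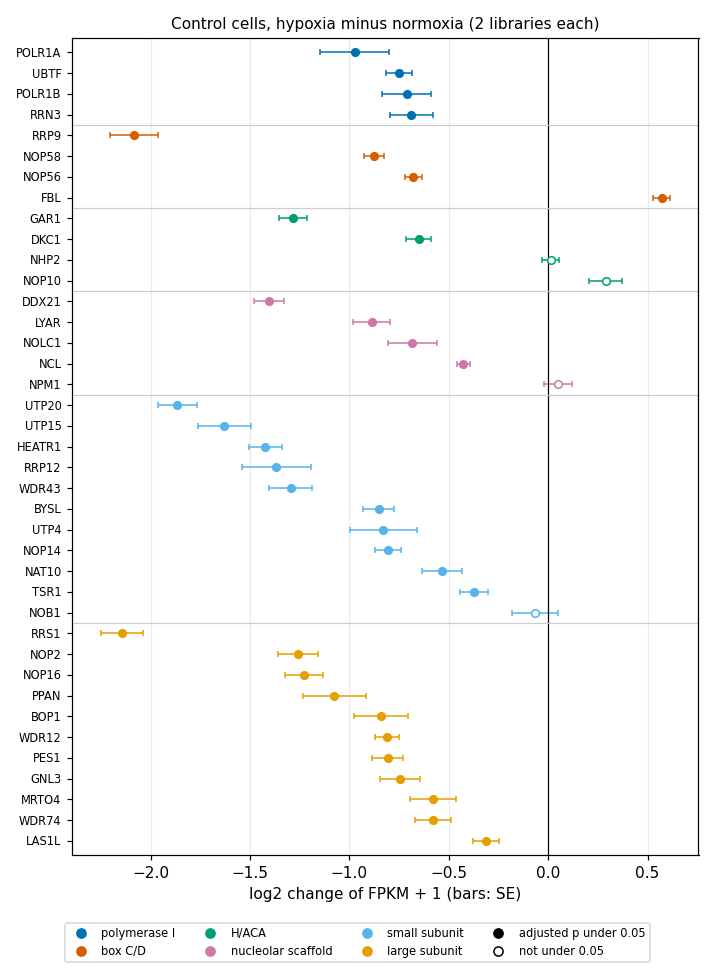
Log2 change of FPKM + 1 from normoxia to hypoxia in control cells (horizontal; bars: SE of the fit, 2 libraries per group) for the 39 members (vertical), coloured by role, with filled points for an adjusted p under 0.05. Filled points to the left of 0 number 34, and FBL at 0.57 is the filled point to the right.

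The promoters of members at both ends of this range are shown because a motif that they share, the E-box CACGTG, was found in many members and lies close to the start of the gene at either end of the range of change. The E-box is known to be bound by MYC with its partner MAX and by several other factors. Each sequence runs 5′ to 3′ along the strand of the gene, from 70 bases before to 30 bases after the annotated start (RefSeq, GRCh38.p14), with the E-box in capitals. RRP9, UTP20, DDX21 and WDR43 had the lowest hypoxia changes among members with an E-box in this window, and NOP10 and FBL the highest.
RRP9 (chr3:51941875-51941974, minus strand): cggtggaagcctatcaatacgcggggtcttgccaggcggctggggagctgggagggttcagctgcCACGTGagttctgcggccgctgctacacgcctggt
UTP20 (chr12:101280035-101280134, plus strand): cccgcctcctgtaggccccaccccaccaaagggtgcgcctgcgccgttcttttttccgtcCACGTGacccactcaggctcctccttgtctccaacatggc
DDX21 (chr10:68956577-68956676, plus strand): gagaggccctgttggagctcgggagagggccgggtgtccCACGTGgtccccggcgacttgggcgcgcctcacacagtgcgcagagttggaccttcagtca
WDR43 (chr2:28894597-28894696, plus strand): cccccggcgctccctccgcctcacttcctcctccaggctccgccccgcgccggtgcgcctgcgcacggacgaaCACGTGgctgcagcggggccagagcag
NOP10 (chr15:34343107-34343206, minus strand): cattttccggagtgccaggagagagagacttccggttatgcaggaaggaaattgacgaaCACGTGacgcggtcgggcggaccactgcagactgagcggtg
FBL (chr19:39846350-39846449, minus strand): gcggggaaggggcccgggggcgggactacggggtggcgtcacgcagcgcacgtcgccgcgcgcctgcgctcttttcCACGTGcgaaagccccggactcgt

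Promoters of 300 bases, from 250 before to 50 after the start, were at hand for 34 of the 39 members. CACGTG, which reads the same on both strands, was in 16 of the 34 (47.1%), and in 15 of them (44.1%) it lay within 50 bases of the start. It was in 29.9% of the 77 promoters of other ribosome biogenesis genes, in 6.35% of 63 promoters of ribosomal protein genes, in 12.8% of 9967 promoters of tested genes and in 8.77% of all 27305 promoters. The 16 members with the motif had a median hypoxia change of -0.84 and ranged from -2.08 to 0.57 on the log2 scale. The 18 members without it had a median of -0.68 and ranged from -1.63 to 0.05. The second range lies within the first, and the motif was present in members with changes of either sign. The core of the hypoxia response element, ACGTG or GCGTG on either strand, was in 33 of the 34 promoters (97.1%), against 70.8% of tested genes and 52.4% of all promoters; ACGTG lies within CACGTG, so every E-box counts here too. The promoters of BOP1, NOLC1, RRS1, NOP58 and RRP12 were not analysed here.

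**Figure D3:**
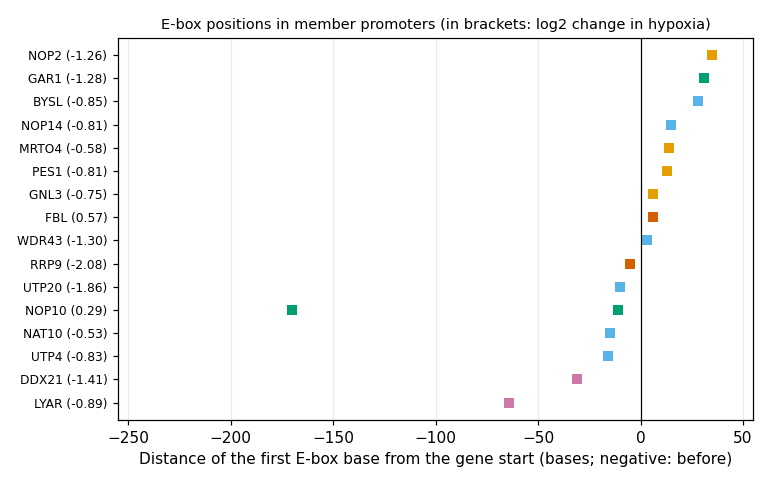
Distance in bases of the first base of each CACGTG from the annotated gene start (horizontal; negative values lie before the start) in the 16 member promoters that hold one (vertical, in order of distance, coloured by role as in the other plots), with the log2 change in hypoxia in brackets. All but LYAR have a motif within 50 bases of the start, and NOP10 has a second one at -170.

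Among the polymerase I genes, UBTF, the factor that bends ribosomal DNA for transcription, was the most abundant and fell from 119 and 126 FPKM in normoxia to 74.5 and 70.4 FPKM in hypoxia (log2 change -0.75, SE 0.064, limma adjusted p = 0.00868). POLR1A, the largest subunit of the polymerase, was at 46.9 and 59.5 FPKM in normoxia and 23.8 and 29.4 FPKM in hypoxia (log2 change -0.97, SE 0.17, limma adjusted p = 0.0272). RRN3, which brings the polymerase to the promoter, went from 20.8 and 19.1 FPKM to 12.5 and 11.5 FPKM (log2 change -0.69, SE 0.11, limma adjusted p = 0.0212). No hypoxia library reached a normoxia library for these genes. The second largest subunit POLR1B fell by 0.71 on the log2 scale, so the 4 genes spanned only -0.97 to -0.69.

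The box C/D proteins parted. RRP9, a protein of the U3 particle that pairs with the precursor, was at 30.6 and 28.3 FPKM in normoxia and 6.64 and 5.74 FPKM in hypoxia, or 21.0% of the normoxia mean (log2 change -2.08, SE 0.12, limma adjusted p = 0.00691). FBL, the methyltransferase of every box C/D particle, went the other way, from 615 and 585 FPKM to 890 and 893 FPKM (log2 change 0.57, SE 0.042, limma adjusted p = 0.00809). FBL was thus the one member called higher, and its hypoxia libraries lay clear above normoxia. Among its partners in the same particle, the scaffold proteins NOP56 and NOP58 were lower by 0.68 and 0.88 on the log2 scale. SNU13, a U3 particle protein outside the list of members, was higher, at 273 and 261 FPKM in hypoxia against 219 and 234 FPKM in normoxia. With equal totals FBL kept its direction, at 0.33.

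The H/ACA proteins also split. GAR1 fell from 72.4 and 67.8 FPKM to 28.5 and 27.9 FPKM (log2 change -1.28, SE 0.071, limma adjusted p = 0.00679), and the pseudouridine synthase DKC1 fell by 0.65 on the log2 scale. NOP10, the smallest protein of the complex, was at 231 and 202 FPKM in normoxia and 270 and 259 FPKM in hypoxia, with groups that did not overlap but no call (log2 change 0.29, SE 0.082, limma adjusted p = 0.0684). NHP2 had 243 FPKM in each normoxia library and 249 and 241 FPKM after hypoxia, with a log2 change of 0.01 (SE 0.043) that overlapped between groups and turned to -0.23 with equal totals. The 4 subunits are known to sit together in 1 particle, and here their transcripts spread over a range from -1.28 to 0.29.

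Of the nucleolar scaffold genes, NPM1 had 3280 and 3704 FPKM in normoxia and 3631 and 3587 FPKM in hypoxia, overlapping groups whose log2 difference of 0.05 (SE 0.069, limma adjusted p = 0.611) became -0.19 with equal totals. DDX21, an RNA helicase that links transcription and processing of ribosomal RNA, fell from 58.1 and 62.5 FPKM to 22.03 and 22.22 FPKM (log2 change -1.41, SE 0.076, limma adjusted p = 0.00665). The hypoxia libraries of DDX21 were nearly equal to each other and well under normoxia. LYAR, NOLC1 and NCL fell by 0.89, 0.68 and 0.43 on the log2 scale. The very abundant NCL went from 2034 and 2000 FPKM to 1489 and 1512 FPKM.

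The small subunit factors held the widest set of strong falls. UTP20, a large protein of the processome, was at 25.8 and 26.5 FPKM in normoxia and 6.49 and 6.43 FPKM in hypoxia (log2 change -1.86, SE 0.096, limma adjusted p = 0.00665). WDR43, the most abundant member of the group and a processome protein also needed for transcription of the precursor, fell from 155.9 and 187.3 FPKM to 70.7 and 67.4 FPKM (log2 change -1.30, SE 0.11, limma adjusted p = 0.0086). In both genes the groups lay far apart. UTP15 (-1.63), HEATR1 (-1.42) and RRP12 (-1.37) had log2 changes between these 2, and BYSL, UTP4, NOP14, NAT10 and TSR1 fell by 0.85, 0.83, 0.81, 0.53 and 0.37. NOB1, the nuclease that makes the final cut at the end of 18S rRNA in the cytoplasm, was the exception, at 28.2 and 29.3 FPKM in normoxia and 25.1 and 29.9 FPKM in hypoxia (log2 change -0.07, SE 0.12, limma adjusted p = 0.684). Its groups overlapped.

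All large subunit factors fell. RRS1, which helps to bring the 5S RNP into the early large subunit, had the lowest log2 change of the 39, from 55.8 and 59.8 FPKM to 13.2 and 11.5 FPKM (log2 change -2.14, SE 0.11, limma adjusted p = 0.00665). WDR12, which acts in a complex with PES1 and BOP1, was the most abundant of the group and fell from 268 and 249 FPKM to 150 and 144 FPKM (log2 change -0.81, SE 0.060, limma adjusted p = 0.00809). Its partners PES1 and BOP1 fell by 0.81 and 0.84 on the log2 scale, so all 3 lay near the member median of -0.81. In eKD2 against hypoxic control the 3 parted, with log2 changes of 0.79 for WDR12, 0.40 for PES1 and 0.12 for BOP1. NOP2 (a cytosine methyltransferase of 28S rRNA), NOP16 and PPAN fell by 1.26, 1.23 and 1.08, and GNL3, MRTO4 and WDR74 by 0.75, 0.58 and 0.58. LAS1L, a nuclease that cuts between 5.8S and 28S rRNA, had the smallest fall of the group, from 46.6 and 45.9 FPKM to 37.5 and 36.6 FPKM (log2 change -0.31, SE 0.065, limma adjusted p = 0.0371).

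Another 87 genes of the same pathway moved the same way for the most part, with 59 called lower, 3 higher and a median log2 change of -0.56. The lowest were NOL6, LTV1 and PNO1, all small subunit factors, with log2 changes of -1.63, -1.63 and -1.52. The highest were POLR1D (a subunit shared by polymerases I and III), IMP3 and SNU13 (both proteins of the U3 particle), with log2 changes of 0.45, 0.43 and 0.24. The 79 cytosolic ribosomal protein genes lay on the other side of 0, with 76 called higher, 0 lower and a median of 0.65. The factors that build the ribosome and the proteins that make it up thus stood on opposite sides of the median over all genes.

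**Figure D4:**
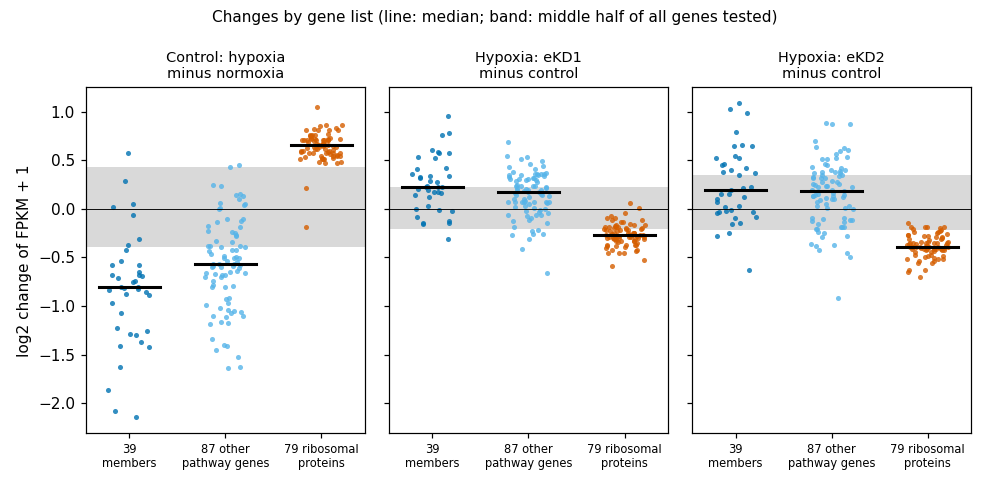
Log2 change of FPKM + 1 (vertical) of the 39 members, 87 other genes of the pathway and 79 ribosomal protein genes in 3 comparisons (panels), with 1 point per gene, a line at the median of each list and a grey band for the interquartile range of all genes tested. In hypoxia the member median of -0.81 lies under the band, which runs from -0.39 to 0.43, and the ribosomal protein median of 0.65 above it. In eKD1 and eKD2 the member medians are 0.23 and 0.19 and those of the ribosomal proteins -0.27 and -0.39.

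Each guide was compared with control in hypoxia to see whether repression of the LOXHD1 enhancer changed the members at the same oxygen level. In eKD1, 0 of 39 were called by limma, where 0.0520% of all genes were called lower and 0.0130% higher. The members' log2 changes ranged from -0.31 to 0.96. The log2 change was positive for 30 members and negative for 9, with a median of 0.23 (0.00 over all genes). At an unadjusted p under 0.05, 19 members were higher and 2 lower, against 11.7% and 10.0% of all genes. Both eKD1 libraries lay above both control libraries for 27 members and below them for 4, against 27.6% and 26.0% of all genes. In a fit that shares the spread of all 8 libraries 10 members were called, NOP56, BYSL, DDX21, GAR1, NOP16, WDR43, UTP15, RRS1 and RRP9 higher and FBL lower, against 2.89% of all genes higher and 2.06% lower. Leaving out any 1 of the 4 libraries from that fit brought the count to 0, where only 20 to 41 of all 15372 genes were called.

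The 3 largest changes in eKD1 were positive, and none passed the threshold. RRP9 was at 13.0 and 12.8 FPKM in eKD1, against 6.64 and 5.74 FPKM in hypoxic controls (log2 change 0.96, SE 0.13, limma adjusted p = 0.11). RRS1 was at 22.5 and 21.2 FPKM against 13.2 and 11.5 FPKM (log2 change 0.78, SE 0.11, limma adjusted p = 0.115). UTP15, a processome protein that binds the early precursor, was at 15.0 and 15.4 FPKM against 7.81 and 9.44 FPKM (log2 change 0.75, SE 0.13, limma adjusted p = 0.12). In each of these the eKD1 libraries were above both controls, but still far under normoxia. The control hypoxia libraries enter this comparison and the hypoxia one, so a low value there acts on both.

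At the other end, FBL was at 724 and 710 FPKM in eKD1 against 890 and 893 FPKM in hypoxic controls (log2 change -0.31, SE 0.035, limma adjusted p = 0.102). NPM1 was at 3353 and 3120 FPKM, under both control values of 3631 and 3587 FPKM (log2 change -0.16, SE 0.049, limma adjusted p = 0.2). NOB1 was at 29.7 and 20.3 FPKM, overlapping the control values of 25.1 and 29.9 FPKM (log2 change -0.15, SE 0.22, limma adjusted p = 0.73). FBL and NPM1 separated from control, and NOB1 did not.

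In eKD2, 7 members were higher and 2 lower, against 5.80% of all genes called higher and 3.81% lower. The members that rose were RRP9, WDR43, DDX21, WDR12, GAR1, POLR1B and NOP14, and those that fell were NHP2 and FBL. The median over the members was 0.19, against 0.05 over all genes, with 27 positive and 12 negative changes. Both eKD2 libraries lay above both control libraries for 23 members and below them for 5, where the shares over all genes were 35.8% and 26.4%. The fit of all 8 libraries called 12 members higher, adding PES1, RRN3, HEATR1, NOP58 and UTP15, and the same 2 lower, against 10.4% and 6.51% of all genes. Leaving out any 1 of the 4 libraries from that fit brought the count of 14 to between 6 and 8. Over all 15372 genes those fits called 670 to 1034. Without a variance trend 0 members were called, against 28 of all 15372 genes. With equal totals 12 members were higher and 0 lower, against 1896 of all 15386 genes called in either direction. PTPRC was at 14.3 and 13.5 FPKM in eKD2, 10.0 and 9.59 FPKM in eKD1, against 4.87 and 5.39 FPKM in hypoxic controls, and the eKD libraries were shallower than those controls. The part of either in the changes of both guides was not tested.

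**Figure D5:**
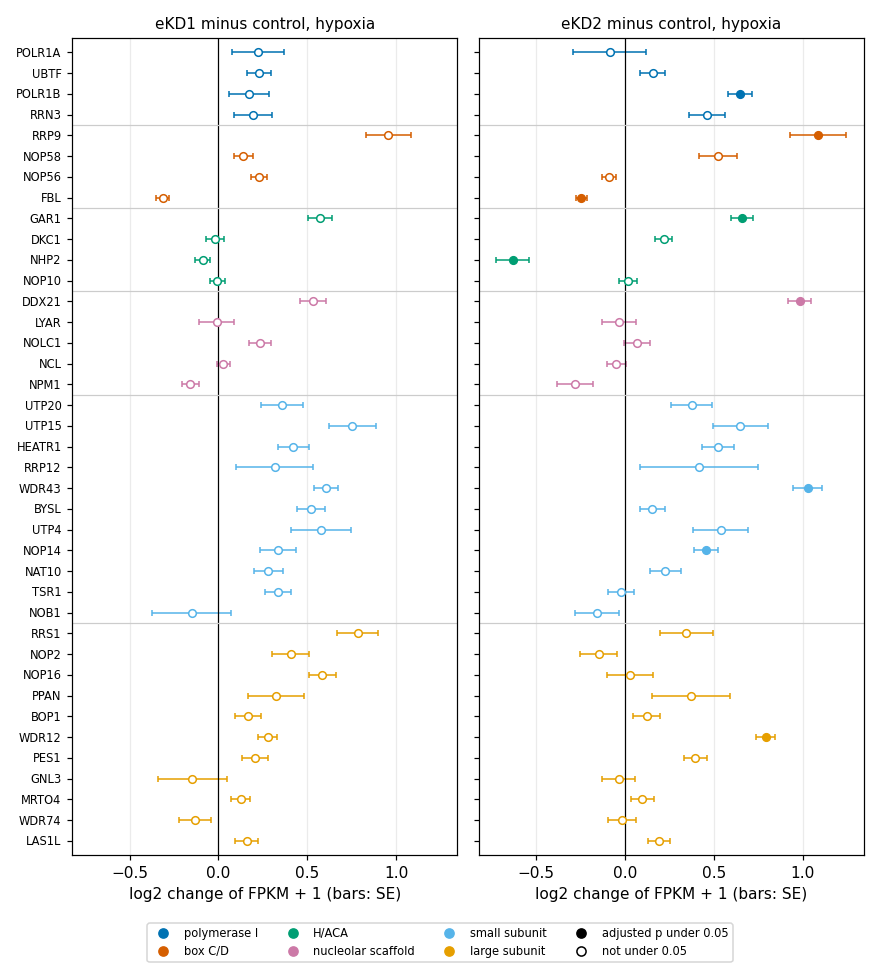
Log2 change of FPKM + 1 (horizontal; bars: SE of the fit, 2 libraries per group) of eKD1 (left panel) and eKD2 (right panel) against control in hypoxia for the 39 members (vertical), coloured by role, with filled points for an adjusted p under 0.05. The left panel has 0 filled points, and the right panel has 7 to the right of 0 and 2 to the left. Both panels use the same 2 control libraries.

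RRP9 was at 12.8 and 15.8 FPKM in eKD2 (log2 change 1.09, SE 0.16, limma adjusted p = 0.0417), more than both control values of 6.64 and 5.74 FPKM. WDR43 was at 150.4 and 133.5 FPKM, against 70.7 and 67.4 FPKM (log2 change 1.03, SE 0.081, limma adjusted p = 0.0273). DDX21 was at 44.8 and 44.5 FPKM, against 22.03 and 22.22 FPKM (log2 change 0.98, SE 0.066, limma adjusted p = 0.0273). On this scale WDR43 was 2.04 times and DDX21 1.98 times as high as in control, and the groups lay far apart. WDR12 rose by 0.79 on the log2 scale to 263 and 247 FPKM, a level that overlaps its normoxia values of 268 and 249 FPKM. GAR1, POLR1B and NOP14 (a scaffold of the early small subunit) rose by 0.66, 0.65 and 0.45.

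NHP2, which was not called in hypoxia, fell in eKD2 to 171 and 146 FPKM from 249 and 241 FPKM (log2 change -0.63, SE 0.093, limma adjusted p = 0.0421). FBL was at 747 and 756 FPKM, against 890 and 893 FPKM (log2 change -0.25, SE 0.031, limma adjusted p = 0.0359). NPM1 was at 3253 and 2708 FPKM, against 3631 and 3587 FPKM (log2 change -0.28, SE 0.10, limma adjusted p = 0.156). All 3 separated from control, and only NHP2 and FBL were called. Both calls were lost with equal totals, at log2 changes of -0.52 for NHP2 and -0.14 for FBL. They were also lost without the filter on low values, without a variance trend and with a replicate block, which called 0 of all 15372 genes.

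Across the other pathway genes, 0 of 87 were called in eKD1 with a median of 0.17, and 11 were higher and 1 lower in eKD2 with a median of 0.19. Of the ribosomal protein genes, 0 of 79 were called in eKD1, with a median of -0.27, and 67 were lower in eKD2, with a median of -0.39. In both guides the medians of the factors and of the ribosomal proteins had opposite signs. These values rest on the same control libraries as the hypoxia comparison and are not independent of it.

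A direct comparison of the guides called 0 members, where 0.117% of all genes were called lower and 0.286% higher in eKD2. At an unadjusted p under 0.05, 7 were lower and 7 higher, against 9.73% and 13.8% of all genes. The fit of all 8 libraries called 6 lower (NOP16, NOP2, NHP2, BYSL, TSR1 and NOP56) and 3 higher (NOP58, DDX21 and WDR12), against 3.79% and 5.26% of all genes. Leaving out 1 library from that fit left 0 to 3, where 190 to 320 of all 15372 genes were called. The members' median difference was 0.02, so the list as a whole lay near 0 while single members spread from -0.55 to 0.51.

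NOP2 was at 51.7 and 51.6 FPKM with the first guide and 34.9 and 34.8 FPKM with the second (log2 difference -0.55, SE 0.063, limma adjusted p = 0.0779). NOP16, a factor of the early large subunit, was at 83.0 and 79.9 FPKM in eKD1, against 49.6 and 61.2 FPKM in eKD2 (log2 difference -0.55, SE 0.12, limma adjusted p = 0.125). NHP2 was at 230 and 231 FPKM in eKD1, against 171 and 146 FPKM in eKD2 (log2 difference -0.54, SE 0.094, limma adjusted p = 0.0997). The guides did not overlap in any of these. WDR12, at 183 and 174 FPKM in eKD1, was higher in eKD2 by 0.51 (SE 0.061, limma adjusted p = 0.0779). POLR1B, at 36.5 and 30.7 FPKM in eKD1, against 45.8 and 47.9 FPKM in eKD2, differed by 0.47 (SE 0.11, limma adjusted p = 0.134). DDX21, at 32.01 and 32.80 FPKM in eKD1, differed by 0.45 (SE 0.067, limma adjusted p = 0.0874).

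Set against control normoxia, both guides in hypoxia still had most members at lower levels. In eKD1, 20 members were called lower and 0 higher, against 4.75% and 6.06% of all genes, with a median of -0.60. In eKD2, 23 were lower and 1 (FBL) higher, against 7.83% and 11.5%, with a median of -0.59. The change was negative for 37 of 39 members in each guide, and the exceptions were FBL and NOP10 in both. The fit of all 8 libraries called 30 lower and 2 higher in eKD1, against 11.2% and 13.5% of all genes, and 28 lower and 2 higher in eKD2, against 12.0% and 17.6%. Without a filter on low values 0 members were called in eKD1 and 10 in eKD2, against 7 and 1261 of all 27155 genes. Without a variance trend 3 and 13 members were called, against 298 and 2116 of all 15372 genes. RRS1 was at 37.8% of its normoxia mean in eKD1 and 27.6% in eKD2, and UTP20 at 32.7% and 33.2%. WDR12 (98.7%) and POLR1B (95.1%) in eKD2 and TSR1 (97.2%) in eKD1 were at levels close to normoxia, with log2 changes of -0.02, -0.06 and -0.04. These comparisons mix oxygen and guide, which cannot be told apart in them.

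The members lie on 17 chromosomes of GRCh37 and so do not form a cluster. The largest number on 1 chromosome is 6, on chromosome 2. RRS1 (ENSG00000179041.3_3) spans chromosome 8 from 67341249 to 67342968 (plus strand). RRP9 (ENSG00000114767.6_2) spans chromosome 3 from 51967445 to 51975920 (minus strand). FBL (ENSG00000105202.8_4) spans chromosome 19 from 40325098 to 40337019 (minus strand). Exons of 13 members overlap those of another protein-coding gene (PPAN with the PPAN-P2RY11 readthrough and WDR12 with CARF and NBEAL1 among them), and since the library kit does not keep strand, the reads there could have been shared out between genes. RRS1, NHP2, NOP2 and NOP16 are among these 13, so their values are uncertain to that extent.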

How the data were processed

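Poly-A selected TruSeq v2 libraries of SK-N-MC cells were sequenced by the authors with single-end reads, aligned with STAR to GRCh37 and summarised with cufflinks and cuffnorm. The table deposited by the authors gives FPKM, 1 column per library for 60332 genes, and how cuffnorm scaled the libraries to each other is not given in the sources used here. Absolute depth is unknown, so no counting interval was computed. The study's own tests used read counts; FPKM values are no counts, so limma was used here.

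Groups and replicate numbers came from the sample titles. Genes that reached 1 FPKM in 2 or more of the 8 libraries were kept (15372), and log2(FPKM + 1) was fitted with limma 3.58.1 in R 4.3.3 (lmFit, eBayes with a variance trend), separately for each of 6 comparisons of 2 against 2 libraries. The pseudocount understates changes of low genes. P-values are two-sided, with Benjamini-Hochberg adjustment across the 15372 genes. A call is an adjusted p under 0.05, and SE is that of the fit. All adjusted p-values are from limma. The fit was tested on simulated data. No p was adjusted over the member list and no set test was run.

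The 39 members, the 88 other pathway genes (87 tested, since EMG1 has more than 1 entry), the 79 ribosomal protein genes and the marker lists were chosen with earlier results of these data known. The members described in full are, per role group, the most abundant and those with the lowest and highest hypoxia change, then the 3 lowest and 3 highest in eKD1, eKD2 and eKD2 against eKD1. Other members are named with their changes or in counts.

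Positions came from GENCODE version 44 lifted to GRCh37, which matched all 39 members by gene ID. Promoters came from RefSeq on GRCh38.p14, and a gene was counted as holding a motif where any of its entries did. Results were recomputed with a pseudocount of 0.1, without the filter, with median-of-ratios scaling, with equal totals, in 1 fit shared by all 8 libraries, with the replicate number as a block, without a variance trend and without each library in turn. Leaving out a library within the shared fit was added after seeing the data.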

Additional observations from a re-analysis of the deposited data

Results flagged for a closer look

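NOP2, the cytosine methyltransferase of 28S rRNA, was singled out because its libraries lay on opposite sides of control in the 2 guides. Both eKD1 libraries (51.7 and 51.6 FPKM) lay above both control hypoxia libraries (42.0 and 35.7 FPKM), and both eKD2 libraries (34.9 and 34.8 FPKM) lay below them. Neither guide differed from control past the threshold (limma adjusted p = 0.163 in eKD1 and 0.397 in eKD2). The eKD2 minus eKD1 difference was -0.55 on the log2 scale, with a limma adjusted p of 0.0779, which misses the threshold (0.0194 to 0.319 over the alternatives).

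NOP56, a scaffold protein of box C/D particles, showed the same order, at 541 and 528 FPKM in eKD1, 465 and 446 FPKM in control hypoxia and 426 and 430 FPKM in eKD2. Against control the limma adjusted p was 0.125 in eKD1 and 0.223 in eKD2. The eKD2 minus eKD1 difference was -0.32 on the log2 scale, with a limma adjusted p of 0.0785 (0.0119 to 0.319 over the alternatives). Both differences passed the threshold in the fit of all 8 libraries. Both genes were picked because the guides lay on opposite sides of control, so this pass is no separate support. The share of all genes with this order of groups is not given here. Groups of 2 libraries were too small for a check of single libraries that stand apart.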

How the results depend on the processing

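In hypoxia the members called stayed between 24 and 36 of 39 under every alternative that keeps all 4 libraries. With 1 library left out, the fit of 3 libraries has 1 residual degree of freedom and called 0 of 15372 genes, so counts of members called ranged from 0 to 35 in hypoxia, 0 to 8 in eKD2, 0 to 3 in eKD2 against eKD1, 0 to 24 in eKD1 against normoxia and 0 to 26 in eKD2 against normoxia, the upper values coming from the shared fit of the remaining libraries. The shared fit of all 8 libraries called 10 members in eKD1, 14 in eKD2, 9 in eKD2 against eKD1 and 32 in eKD1 against normoxia. Without a filter the counts were 5 in eKD2, 1 in eKD2 against eKD1, 0 in eKD1 against normoxia and 10 in eKD2 against normoxia. Over all 27155 genes they were 853, 260, 7 and 1261 in that order. Without a variance trend the member counts were 0, 3 and 13 in eKD2, eKD1 against normoxia and eKD2 against normoxia. Over all 15372 genes they were 28, 298 and 2116. Same-numbered libraries did not deviate together (correlations of deviations from -0.057 to 0.126). This does not settle whether libraries with the same number were handled as pairs, which the sample titles do not state. With a replicate block 27 members were called in hypoxia and 0 in each of the other comparisons. Of all 15372 genes that setting called 2570 in hypoxia, 51 in eKD2 against normoxia and 0 in the rest.

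Equal totals moved the members' median to -1.05 in hypoxia, 0.30 in eKD1 and 0.30 in eKD2, and median-of-ratios scaling moved it to 0.12 in eKD2 and to -0.024 in eKD2 against eKD1, where leaving out 1 library gave -0.015 to 0.042. Members near 0 changed sign. In hypoxia NHP2 was -0.23 with equal totals and -0.0086 to 0.036 with 1 library left out, NPM1 -0.19 and -0.037 to 0.14, and NOB1 -0.19 to 0.054. In eKD1 NOP10 was 0.065 with equal totals and -0.034 to 0.021 with 1 library left out, and NOB1 -0.41 to 0.11. In eKD2 NOP10 was -0.053 with median-of-ratios scaling and -0.019 to 0.057 with 1 library left out, and POLR1A was 0.017 with equal totals and -0.30 to 0.13 with 1 library left out. Unless a value above shows it, the cause of these changes was not tested. With 2 libraries per group and depth unknown, a member that was not called is not shown to be unchanged.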

Other observations

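Among the 39 members, 9 hold 25 small nucleolar RNA genes within their spans, among them NOP56, NOP58, NCL, WDR43, GNL3 and PPAN. Their median log2 change in hypoxia was -0.75, and that of the 30 members without such a gene was -0.81.

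NPM1 has 44 pseudogene entries in the table, and the highest of them, NPM1P27, had a mean of 9.36 FPKM over the 8 libraries, against 3329 FPKM for NPM1. RRN3P1 was nearer to its gene, at 4.005 FPKM against 15.7 FPKM for RRN3.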
